A study of Rattus norvegicus with 53 samples.

Results

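The untreated L6 myotube at time 0 was described from 6 arrays of the 53 in the series, those titled Control_0 and pre-treatment_0, in replicate letters a, b and c. L6 is an established line of rat skeletal muscle myoblasts, which were grown, switched to differentiation medium until myotubes had formed and then kept without serum. No array of time 0 had seen insulin. Control_0 came from the culture that stayed without insulin, and pre-treatment_0 from the culture that was given 20 nM insulin just after this harvest. For each culture of a letter, samples taken at time 0 were pooled before hybridization, and the whole experiment was run 3 times, on different days, with the same cell line. The 3 letters are taken here as these runs, which the titles do not state. Letter and day can then not be told apart, and each letter rests on 2 arrays. The later arrays used here are 24 of the control culture and 23 of the insulin culture, each a pool of samples taken within 1 hour, from hour 1 to hour 8. Those of the insulin culture served for 1 check and for the estimate of spread in the culture and hour comparisons.

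Myoblasts that leave the cell cycle turn on myogenin, fuse, and then assemble sarcomeres, the membrane system that releases calcium, and acetylcholine receptors. Developing fibres use embryonic forms of several contractile proteins, which adult fibres replace by fast or slow forms. Muscle takes up glucose through the insulin-regulated transporter Slc2a4 (GLUT4), and L6 myotubes are widely used to study this step.

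All values are log2 levels from robust multi-array averaging (RMA), so a difference of 1 is a doubling. Each of 14217 genes was read at its brightest probe set, the one with the highest mean over all arrays. Probe sets bind with different strengths, so levels of different genes were not ranked against each other. A background range was taken instead from 73 measured genes of unrelated tissues (liver, pancreas, retina, pituitary and others), whose means at time 0 had a median of 5.17. Its limit, 6.82, is the 95th percentile of those means. A gene was called above the range when all 6 arrays lay above the limit, which held for 7839 of the 14217 genes, or 55.1%, and for 3 of the 73 genes that set the limit.

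The 6 arrays resembled each other closely. Correlations over the 21729 tested probe sets, the brightest 70%, ran from 0.974 to 0.993. The SD of the difference between 2 arrays was 0.22 to 0.28 within a letter and 0.25 to 0.43 within a culture, with the widest value between the control_0 arrays of letters a and c. The control_0 array of letter a stood apart from the other 5 in several genes named below. The comparisons below were also fitted without it, while the means and SDs of levels include it.

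The 4 markers of the myotube were above the background range on every array. Myogenin (Myog), the transcription factor that commits myoblasts to differentiation, measured 13.35, 12.67 and 11.55 in letters a, b and c of control_0 and 12.40, 12.48 and 11.64 in pre-treatment_0. Skeletal alpha actin (Acta1), the actin of the thin filament, measured 13.71, 13.66 and 13.00 in control_0 and 13.63, 13.66 and 13.14 in pre-treatment_0. In both genes the arrays of letter c were the lowest in each culture. Desmin (Des), the intermediate filament of muscle, measured 7.41, 8.06 and 6.98 in control_0 and 7.43, 7.70 and 7.03 in pre-treatment_0, so that letter c lay close to the limit. Slc2a4 measured 7.94, 7.97 and 7.78 in control_0 and 8.15, 7.66 and 7.58 in pre-treatment_0, with overlapping cultures.

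Other cell types were checked with their own markers, to be read against the 55.1% of all genes above the range. The endothelial list had 0 of 9 measured genes above the range, with Pecam1 at 3.94 ± 0.13 (SD, n = 6). Of 12 macrophage genes 1 was above it (Cd14, 7.61 ± 0.21), while the leukocyte marker Ptprc had 4.69 ± 0.15. The adipocyte list had 1 of 9 (Lipe, hormone-sensitive lipase, 7.89 ± 0.15), and adiponectin (Adipoq) lay at 4.68 ± 0.11. Of the smooth muscle list, Tagln, Acta2 and Smtn were above the range and Myh11, Cnn1 and Myocd were not. The fibroblast list had 10 of 12 above it, among them the collagens Col1a2 (13.55 ± 0.18) and Col3a1 (13.49 ± 0.12). Genes of proliferating cells were measured as well. Of 28 such genes 27 exceeded the limit, including the nuclear antigen Mki67 (9.88 ± 0.51), the mitotic kinase Cdk1 (10.00 ± 0.48) and the replication clamp Pcna (12.30 ± 0.37).

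Among the myogenic regulators, 13 of 17 measured genes (76.5%) were above the range, against 55.1% of all genes. Mef2a (12.35 ± 0.27) and Mef2c (10.91 ± 0.18), partners of the myogenic factors, were above it, as was Mymk (11.59 ± 0.63), the membrane protein needed for myoblast fusion. Myod1, which acts before myogenin, lay at 4.00 ± 0.10 and Myf6 at 5.55 ± 0.66, both within the background range on all arrays. The Id proteins, which bind the partners of myogenic factors and hold back differentiation, were above the range (Id1 8.85 ± 0.68, Id2 10.10 ± 0.71, Id3 10.79 ± 1.03).

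The contractile genes above the range included embryonic forms. Of the sarcomere list, 29 of 49 measured genes (59.2%) were above it, near the 55.1% of all genes. Embryonic myosin heavy chain (Myh3) had 13.37 ± 0.49, the embryonic light chain Myl4 had 13.86 ± 0.20, and the cardiac-type troponin T of early muscle (Tnnt2) had 13.26 ± 0.31. The perinatal heavy chain Myh8 (5.16 ± 0.26), the slow chain Myh7 (4.78 ± 0.28) and the fast chains Myh2 (3.63 ± 0.08) and Myh4 (2.99 ± 0.12) lay within the range. The fast chain Myh1 was the exception, at 11.13 ± 0.37, and its dimmest probe set had 8.72. Members of the heavy chain family are close in sequence, and probe sets that share sequence between them cannot be told apart here. Slow and fast troponins were above the range together (Tnnc1 13.46 ± 0.21 and Tnnc2 13.13 ± 0.54, Tnni1 12.02 ± 0.55 and Tnni2 11.82 ± 0.68), whereas slow troponin T (Tnnt1) had 6.57 ± 0.74. Myoglobin (Mb), the oxygen store of mature fibres, lay at 5.24 ± 0.50.

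The receptor of the neuromuscular junction was divided by form as well. Chrng, the gamma subunit of the fetal acetylcholine receptor, had 9.52 ± 1.04 and was above the range on all arrays, while Chrne, the epsilon subunit that takes its place in the adult receptor, had 6.69 ± 0.60 and was above it in letters a and b only. Of the calcium list 14 of 23 genes (60.9%) were above the range, also near the 55.1% of all genes. Both calsequestrins, which store calcium in the sarcoplasmic reticulum, were among them (Casq2 12.36 ± 0.26, Casq1 8.06 ± 0.52), and so were the calcium pumps Atp2a2 (11.91 ± 0.14) and Atp2a1 (9.37 ± 0.80). The ryanodine receptor of skeletal muscle (Ryr1), the release channel, had 6.49 ± 0.69, and its arrays fell on both sides of the limit.

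**Figure D1:**
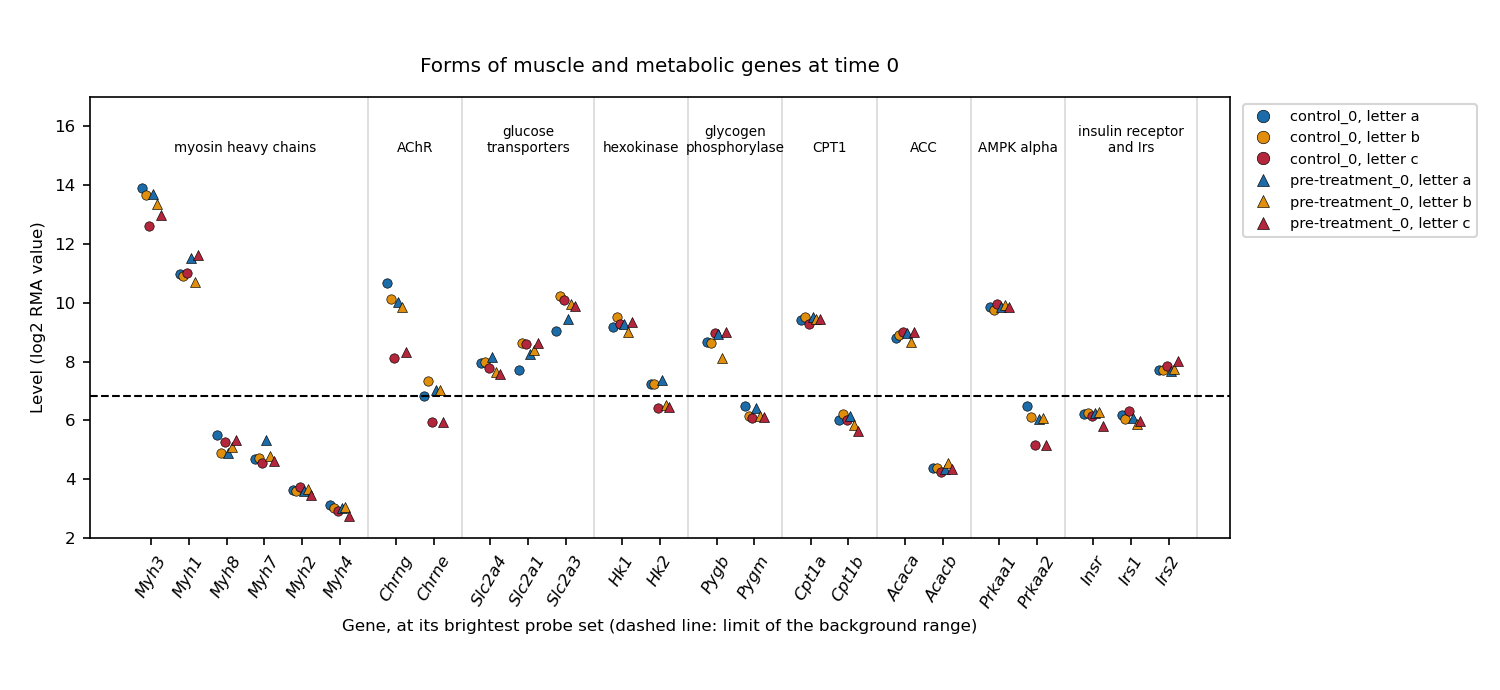
Log2 RMA level (y axis) of genes from families with several forms, 1 point for each of the 6 arrays of time 0 (circles control_0, triangles pre-treatment_0, colour by letter). The dashed line is the limit of the background range at 6.82. Myh3 and Myh1 lie above it and Myh8, Myh7, Myh2 and Myh4 below it, and in the metabolic families the form best known from muscle lies near or below the limit for Hk2, Pygm, Cpt1b, Acacb and Prkaa2. Several families whose muscle form was above the limit, such as those of Gys1, Ckm and Aldoa, are not drawn.

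Genes of energy metabolism were measured with a spread near that of all tested genes. The median SD over the 6 arrays was 0.13 in the oxidative phosphorylation list and 0.14 in the list of the tricarboxylic acid cycle and pyruvate oxidation, against 0.15 over all tested genes and 0.41 in the sarcomere list. It was 0.16 for glycolysis and 0.17 for both glycogen and fatty acid oxidation. Over all genes 55.1% were above the background range. Of the oxidative phosphorylation list and the tricarboxylic acid list, 34 of 35 and 25 of 26 measured genes were above it. The exceptions were Cox7a1, the heart and muscle form of a cytochrome oxidase subunit (5.90 ± 0.18), and Pdk4, a kinase that shuts off pyruvate oxidation in the fasted state (5.18 ± 0.35). Pdk1 (8.33 ± 0.07), Pdk2 (8.21 ± 0.41) and Pdk3 (8.84 ± 0.23), which act on the same enzyme, were above it.

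In several enzyme families the form best known from adult muscle lay within the background range and another form above it. Muscle glycogen phosphorylase (Pygm) had 6.23 ± 0.17 and the brain form Pygb 8.72 ± 0.34. The mitochondrial fatty acid gate of muscle (Cpt1b) had 5.98 ± 0.22 and the liver form Cpt1a 9.44 ± 0.09. Acetyl-CoA carboxylase 2 (Acacb), whose product inhibits that gate, had 4.38 ± 0.10, and Acaca, the enzyme of fatty acid synthesis, 8.90 ± 0.14. For the energy sensor AMPK, Prkaa2 had 5.84 ± 0.56 and Prkaa1 9.87 ± 0.07. The fatty acid transporter Cd36 lay at 3.27 ± 0.17. Hexokinase 2 (Hk2), the form regulated by insulin, had 7.24, 7.25 and 6.43 in control_0 and 7.38, 6.53 and 6.46 in pre-treatment_0, so that 3 of 6 arrays exceeded the limit, while Hk1 had 9.27 ± 0.17. Other families went the other way. Muscle glycogen synthase (Gys1) had 8.63 ± 0.26 and the liver form Gys2 4.43 ± 0.30. Muscle creatine kinase (Ckm) had 9.29 ± 1.07 and the brain form Ckb 3.90 ± 0.15. The aldolase best known from muscle (Aldoa) had 12.98 ± 0.19 and Aldoc 6.05 ± 0.15. Of 4 measured fatty acid binding proteins only the muscle form Fabp3 (8.80 ± 0.41) was above the range. All 3 enolases and all 3 phosphofructokinases were above it, with the muscle forms Eno3 at 12.06 ± 0.24 and Pfkm at 9.05 ± 0.16.

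Besides Slc2a4, the glucose transporters Slc2a1 (8.37 ± 0.36), the basal carrier, and Slc2a3 (9.77 ± 0.45) were above the range. Of the insulin signalling list 36 of 44 measured genes (81.8%) were above it, against 55.1% of all genes. The insulin receptor (Insr) had 6.16 ± 0.17 and its substrate Irs1 6.08 ± 0.15, both within the range on all 6 arrays, whereas Irs2 had 7.79 ± 0.13 and the receptor of insulin-like growth factor 1 (Igf1r) 10.21 ± 0.12. Downstream, the kinases Akt1 (11.03 ± 0.15) and Akt2 (9.59 ± 0.25) were above the range. Tbc1d1, which restrains transporter traffic, had 9.79 ± 0.10 and its relative Tbc1d4 5.15 ± 0.25. Insulin-like growth factor 2 (Igf2), which myotubes secrete during differentiation, measured 12.25, 11.57 and 11.14 in control_0 and 10.63, 10.91 and 10.77 in pre-treatment_0. A level within the range does not show that a gene is silent, since probe sets differ in strength.

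The first comparison asked whether both cultures were alike before insulin. No probe set was called. In limma, 0 of 11493 tested genes (0%) passed an adjusted p of 0.05, and 199 of 21729 probe sets had an unadjusted p under 0.05, with a lowest adjusted p of 1. The median standard error (SE) of a gene's difference was 0.14, so small differences were not detectable in this fit with 3 arrays a culture. The fit holds no letter term, so differences between letters enter its error, and 199 is fewer than chance gives at that threshold. With the letter within each hour as a block, limma gave 1079 probe sets at an unadjusted p under 0.05 and called 0. Myog differed by -0.35 (SE 0.65, pre-treatment_0 minus control_0), Des by -0.10 (SE 0.28), Slc2a4 by -0.10 (SE 0.12) and Acta1 by 0.02 (SE 0.29), each with an adjusted p of 1. Igf2 had the largest difference of all tested genes, at -0.88 (SE 0.62, adjusted p = 1), and was lower in pre-treatment_0 in all 3 letters. Its differences in letters a, b and c were -1.62, -0.67 and -0.36. Among the genes with 1 sign in all letters and the largest moderated t were the RNA-binding protein Nova2 (-0.36, SE 0.11) and the nucleotide sugar transporter Slc35a2 (-0.28, SE 0.095), and in the other direction Gabrr2 (0.34, SE 0.10) and Vps13a (0.30, SE 0.094), again with adjusted p of 1. Leaving out any 1 of the 6 arrays also left 0 calls.

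Between the cultures of a single letter some probe sets differed by more than 1, and the differences varied from letter to letter. These pairs were still among the closest, with an SD of the difference of 0.22 to 0.28. It was 0.25 to 0.43 between arrays of the same culture and 0.27 to 0.37 between arrays that shared neither letter nor culture. The number of probe sets more than 1 apart reached 140 for letter a (0.644%), 83 for b (0.382%) and 39 for c (0.179%). The differences of letters a and b correlated across probe sets at 0.02, those of a and c at -0.16 and those of b and c at -0.18. These are descriptions over 21729 probe sets of 1 array pair per letter, with no test.

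In several of the genes with the largest differences in letter a, the array of control_0 was the one apart. Id3, an inhibitor of differentiation, measured 8.71 there and 10.93 to 11.45 on the other 5 arrays. The interleukin 33 receptor Il1rl1 measured 8.00 against 10.31 to 11.14, the antioxidant enzyme Gpx1 9.55 against 11.22 to 11.70, and the bone morphogenetic protein antagonist Grem1 8.16 against 9.93 to 10.54. In these genes the lone array did not overlap with the rest. The largest differences in the other direction were in Cdkn1c, an inhibitor of the cell cycle (8.85 in control_0, 7.12 in pre-treatment_0), in Igf2 and in the matrix proteoglycan Lum (-1.55). Genes of proliferating cells moved beside them. In letter a 23 of 28 were higher in pre-treatment_0, with a median difference of 0.47 against 0.03 over all tested genes, and the mean level of the list was 9.04 in control_0 and 9.44 in pre-treatment_0. On the other arrays that mean ran from 8.56 to 9.26, so for this list the pre-treatment_0 array of letter a was the one outside. The part of this list in the differences was not tested.

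In letter b the largest differences were in genes of other functions. Tmed5, a cargo protein of the early secretory pathway, measured 6.21 in control_0 and 7.88 in pre-treatment_0, and Gosr1, a Golgi vesicle protein, 8.09 and 9.32. The basement membrane collagen Col4a2 measured 9.81 and 8.40, and the chromatin protein Hmga1 11.21 and 9.98. In letter a Hmga1 differed the other way, by 1.49. Letter c held the closest cultures. There the giant sarcomere protein Ttn measured 7.77 in control_0 and 8.73 in pre-treatment_0, and the early response factor Egr2 6.84 and 5.95.

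**Figure D2:**
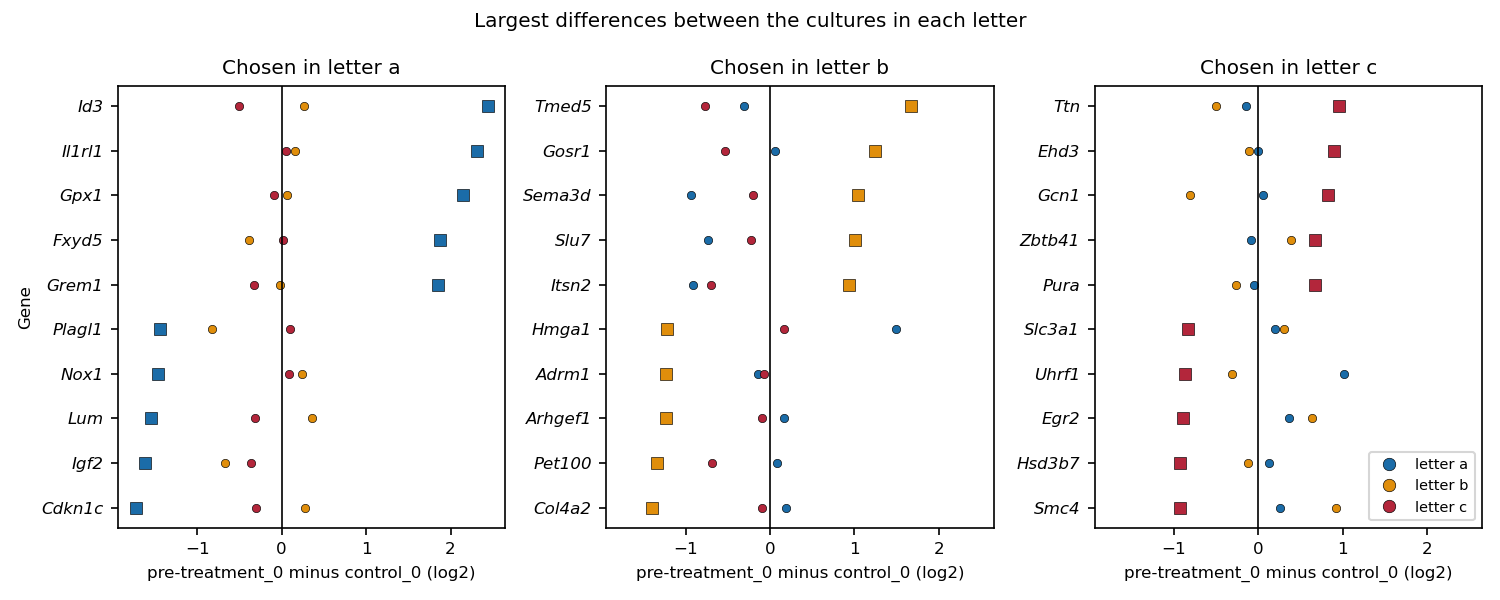
Difference pre-treatment_0 minus control_0 (x axis, log2) for the 10 genes with the largest differences in letter a, b or c (panels). Squares mark the letter in which a gene was chosen and circles the other letters. The squares lie far from 0 by choice, and most circles lie nearer to it, as for Id3 at 2.44 in letter a, 0.27 in b and -0.51 in c.

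The second comparison asked how far the 3 letters differed, with the spread between the cultures of a letter as error. By the limma F test 187 of 21729 probe sets passed, and of 11493 genes 127 were called, or 1.11%. Genes low in letter c made up most of this count. Of the 127 genes, 102 (0.887% of those tested) were lowest in letter c, and in each of them both arrays of letter c lay below the 4 arrays of letters a and b. The choice of these genes on the same arrays favours such a separation. The sarcomere, calcium, neuromuscular and myogenic lists held 36 of the 102. Without regard to a test, letter c had the lowest letter mean in 31.8% of all tested genes.

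The 10 called genes with the widest range of letter means came from the sarcomere, calcium handling, the acetylcholine receptor, energy metabolism and growth factor binding. Nebulin (Neb), the ruler of the thin filament, measured 8.54, 8.33 and 5.74 in letters a, b and c of control_0 and 8.83, 8.40 and 5.98 in pre-treatment_0, 6.33-fold lower in letter c than the mean of a and b (adjusted p = 0.000461). Ampd1, the AMP deaminase of muscle, measured 8.34, 7.85 and 5.29 in control_0 and 8.25, 7.98 and 5.69 in pre-treatment_0, a 6.15-fold difference (adjusted p = 0.000461). Sarcolipin (Sln), a small inhibitor of the calcium pump, measured 12.15, 11.60 and 9.43 in control_0 and 11.71, 11.66 and 9.59 in pre-treatment_0. In each of these genes the letter c arrays stood more than 2 below the others. The light chain Myl1 (4.62-fold, adjusted p = 0.000461), Ckm (4.14-fold, adjusted p = 0.000796) and the small muscle protein Smpx (4.93-fold, adjusted p = 0.000796) also had both letter c arrays below the other 4, and so did the growth factor binding protein Igfbp5 (4.67-fold, adjusted p = 0.0026). Ttn measured 10.75, 9.85 and 7.77 in control_0 and 10.60, 9.35 and 8.73 in pre-treatment_0 (3.70-fold, adjusted p = 0.0139), with the letter c array of pre-treatment_0 nearer to the other letters. The cytochrome oxidase subunit Cox8b, the muscle form, measured 11.74, 11.54 and 9.50 in control_0 and 11.33, 11.65 and 9.61 in pre-treatment_0, while its general form Cox8a had 12.32 ± 0.15 over the 6 arrays.

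Subunits of the acetylcholine receptor moved together. The alpha subunit Chrna1 measured 8.30, 7.94 and 5.88 in control_0 and 8.04, 7.57 and 5.81 in pre-treatment_0 (4.33-fold lower in letter c, adjusted p = 0.000963). Chrng measured 10.66, 10.11 and 8.11 in control_0 and 10.04, 9.86 and 8.33 in pre-treatment_0 (3.85-fold, adjusted p = 0.00446). Chrnd (3.23-fold) and Chrne (2.18-fold) also passed, whereas Chrnb1, Musk and Rapsn did not.

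By list, 22 of 43 tested sarcomere genes were called, 8 of 19 of the calcium list and 4 of 14 of the neuromuscular list, all lowest in letter c, against 1.11% of all genes. Their median differences, letter c minus the mean of a and b, were -0.74, -0.71 and -0.42, against 0.02 over all tested genes. Of the markers, Acta1 passed (1.51-fold lower in letter c, adjusted p = 0.0201), while Myog (2.19-fold, adjusted p = 0.0859), Des (1.57-fold, adjusted p = 0.0754) and Slc2a4 (1.19-fold, adjusted p = 0.479) did not. Of the myogenic regulators, Mymk (2.22-fold) and Myf6 (2.36-fold) passed, the latter within the background range. Not every muscle gene was low in letter c. Atp2a2 measured 12.01 and 12.13 there and 11.78 to 11.86 in the other letters, Tpm3 11.93 and 11.98 against 11.46 to 11.81, and neither passed.

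In several metabolic and signalling lists no gene was called. Of all tested genes 1.11% were called and 14.3% had an unadjusted p under 0.05. At such a share a list of this size may hold no call. A count of 0 therefore does not show that its genes were alike between letters. The limma F test called 0 of 42 insulin signalling genes (7 at an unadjusted p under 0.05), 0 of 20 of glycolysis (3), 0 of 26 of the tricarboxylic acid cycle (5), 0 of 27 of fatty acid oxidation (5) and 0 of 30 of the extracellular matrix (8). Of oxidative phosphorylation 1 of 35 passed, Cox6a2, the muscle form of its subunit (2.59-fold lower in letter c). In the cholesterol list 3 of 19 genes (15.8%) passed, Dhcr7, Insig1 and Fdft1, enzymes and a regulator of sterol synthesis, and they were highest in letter a and lowest in letter b. Dhcr7 measured 8.96, 7.62 and 8.24 in control_0 and 8.69, 7.31 and 8.36 in pre-treatment_0. Of the amino acid response 3 of 29 passed (10.3%), of which Asns, the asparagine synthetase, and Vldlr were lowest in letter c and Ddit3 in letter a. At an unadjusted p under 0.05 were 13 of the 19 cholesterol genes, 15 of the 29 of the amino acid response and 23 of 28 genes of proliferating cells, against 14.3% of all tested genes. Of the last list, Tyms and Nusap1 passed the adjusted threshold, both lowest in letter b, and 24 of 28 were higher in letter c than the mean of a and b (median 0.26). The mean level of that list was 9.26 and 9.21 in letter c, 9.04 and 9.44 in letter a and 8.56 and 8.63 in letter b, and its part in the muscle genes was not tested. In such pools, fewer myotubes and less RNA per myotube cannot be told apart.

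The count of calls depended on single arrays. It was 23 without the control_0 array of letter c, 39 and 51 without the pre-treatment_0 arrays of c and b, 76 without control_0 b, 296 without control_0 a and 987 without pre-treatment_0 a. Neb, Ampd1, Sln, Chrna1, Smpx, Myl1 and Ckm passed in each of these fits. Acta1, Mymk, Chrne, Dhcr7, Tyms and Nusap1 lost the call without any 1 of the 4 arrays of letters b and c. Ttn lost it in 3 fits, Chrng in 2 and Igfbp5 in 1, and Insig1 and Fdft1 lost it in each fit but that without pre-treatment_0 a.

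The same genes were low in letter c on other arrays of the same letters. In the 24 control arrays of hours 1 to 8, each of the 102 genes again had its lowest letter mean in letter c, against 32.5% of all tested genes, with a median difference of -1.22 there and -1.23 at time 0. In the 23 arrays of the insulin culture the median was -1.17. These arrays carry the same 3 letters, so they are further plates and not further runs.

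**Figure D3:**
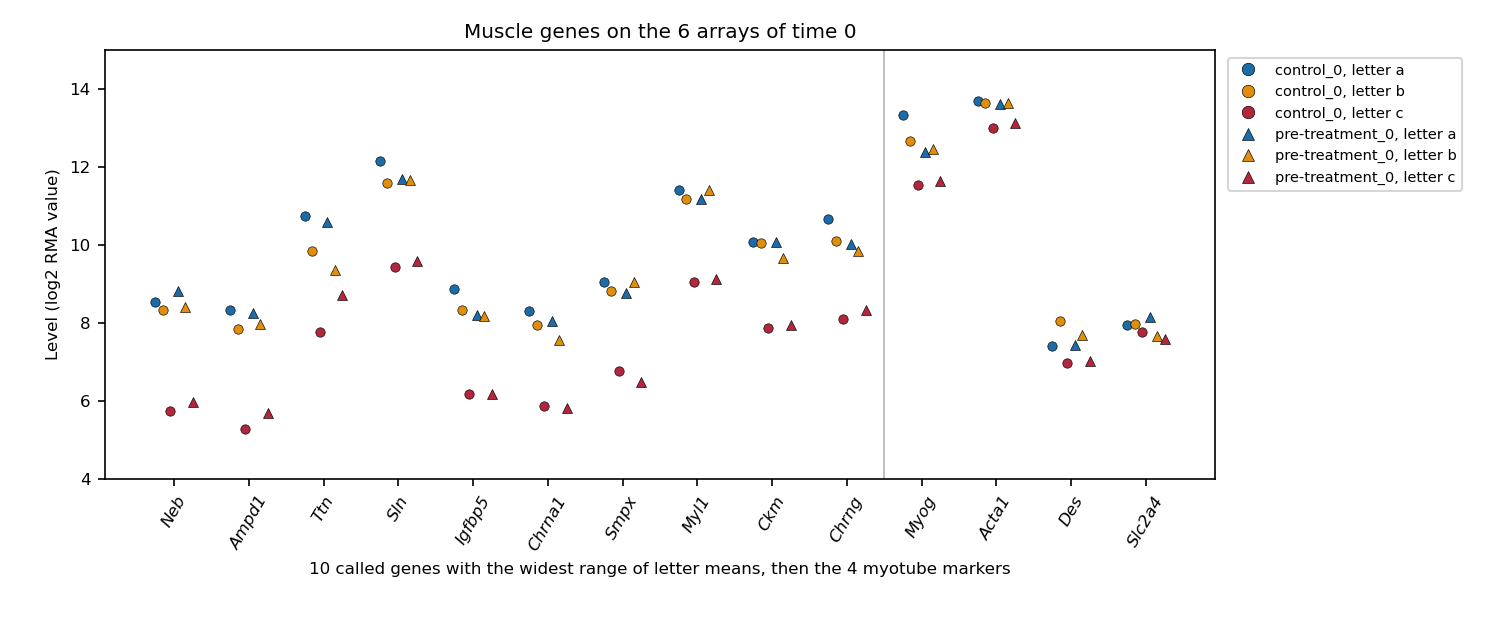
Log2 RMA level (y axis) on each array of time 0 for the 10 called genes with the widest range of letter means, then for the 4 myotube markers (circles control_0, triangles pre-treatment_0, colour by letter). Both arrays of letter c lie below the other 4 in each of the 10 genes, for example at 5.74 and 5.98 against 8.33 to 8.83 for Neb.

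**Figure D4:**
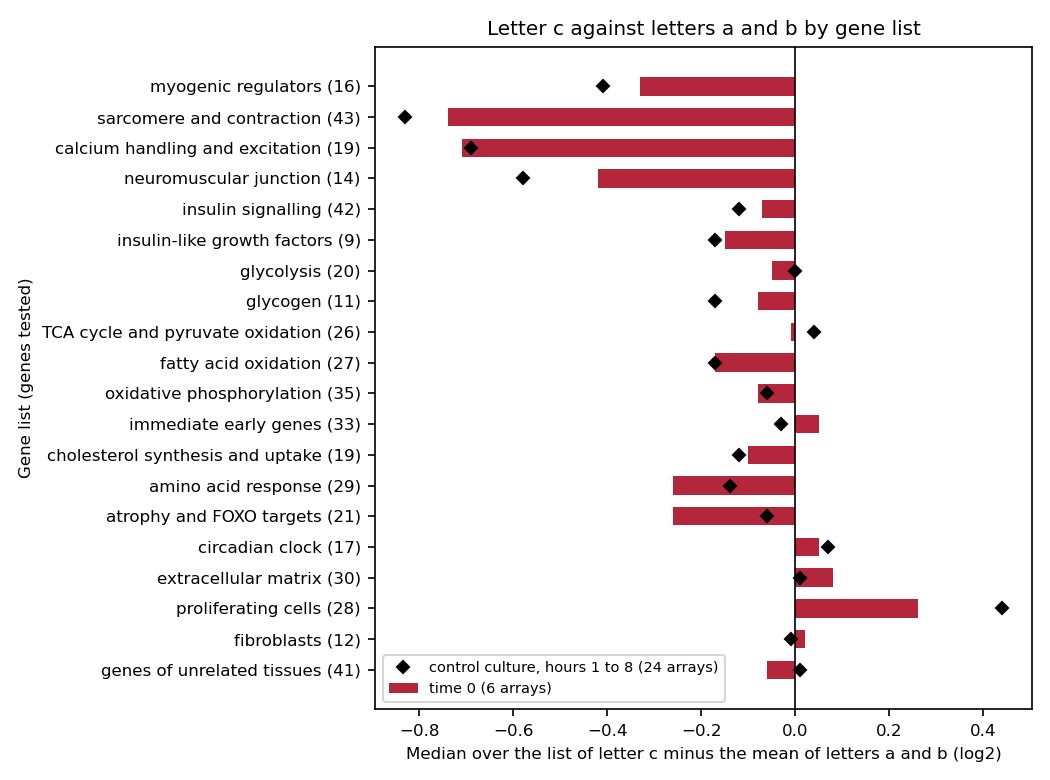
Median over the tested genes of each list of the difference between letter c and the mean of letters a and b (x axis, log2), at time 0 (bars) and in the control culture of hours 1 to 8 (diamonds), for lists of at least 9 genes. The bars reach furthest below 0 for sarcomere (-0.74) and calcium handling (-0.71) and furthest above for proliferating cells (0.26).

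Promoters of 4 genes of the letter c group are shown because their muscle-specific control is textbook knowledge. Each is the run of 250 bases before the start of the gene, 5′ to 3′, from RefSeq in build GRCr8. Capitals mark the E-box CAGCTG, a palindrome bound by myogenic factors and so read on both strands at once, and, in Acta1, a CArG box as well, the site of serum response factor.
Acta1, chr19:68784195-68784444, minus strand: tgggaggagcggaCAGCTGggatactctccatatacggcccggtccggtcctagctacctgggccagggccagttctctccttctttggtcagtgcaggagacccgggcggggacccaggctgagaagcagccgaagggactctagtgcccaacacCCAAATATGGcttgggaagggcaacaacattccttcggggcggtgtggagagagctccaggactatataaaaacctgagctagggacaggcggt
Ckm, chr1:88189211-88189460, plus strand: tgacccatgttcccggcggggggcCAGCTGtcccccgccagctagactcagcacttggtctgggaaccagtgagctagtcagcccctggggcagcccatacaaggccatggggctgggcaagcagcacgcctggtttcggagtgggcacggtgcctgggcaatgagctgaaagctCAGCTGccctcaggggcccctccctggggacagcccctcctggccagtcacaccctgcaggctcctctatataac
Chrna1, chr3:78877354-78877603, minus strand: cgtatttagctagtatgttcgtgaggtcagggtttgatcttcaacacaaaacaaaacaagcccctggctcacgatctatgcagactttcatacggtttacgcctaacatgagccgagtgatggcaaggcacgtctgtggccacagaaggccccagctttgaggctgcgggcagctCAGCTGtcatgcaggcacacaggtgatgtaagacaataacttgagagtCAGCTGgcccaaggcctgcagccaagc
Chrng, chr9:95325734-95325983, plus strand: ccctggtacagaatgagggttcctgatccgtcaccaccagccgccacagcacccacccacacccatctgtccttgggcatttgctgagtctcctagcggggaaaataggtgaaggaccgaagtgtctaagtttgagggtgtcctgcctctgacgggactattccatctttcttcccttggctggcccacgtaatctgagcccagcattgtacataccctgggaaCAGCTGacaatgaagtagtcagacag
The Acta1 run held 1 E-box, starting 237 bases before the gene, and 1 CArG box at 94 bases. Ckm held E-boxes at 226 and 75 bases, Chrna1 at 75 and 27 bases and Chrng at 26 bases. Over all 33469 promoters in the table, 12% held this E-box in the same window. Of the 102 genes lowest in letter c, 86 had a promoter in the table and 28 of these (32.6%) held it. A match of letters is a description and not a site in use, and Neb, Ttn and Myl1 had none in this window.

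The third comparison set the 6 arrays of time 0 against the control culture of hours 1 to 8, to show where the baseline differed from untreated cultures after the change of medium. Of the immediate early genes 16 of 33 were called higher at time 0, as were the 3 Id genes, and of the atrophy and FOXO list, genes that respond to fasting and loss of growth factors, 10 of 21 were called lower. In limma 364 of 11493 genes (3.17%) were called higher at time 0 and 472 (4.11%) lower. Of these 836 genes 825 had 1 sign in all 3 letters, which the choice of called genes on the same arrays favours. The count of called probe sets was 1404.

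Among 33 tested immediate early genes, which respond to stimuli without new protein synthesis, 16 were called higher and 1 lower (Jun, -0.35, SE 0.10), with a median difference of 0.32 against -0.01 over all genes. With 1 mean per letter, paired, 9 of the 16 were still called higher, against 1.18% of all tested genes called higher in that fit. The adjusted p of these 9 in that limma fit, 0.0463 to 0.0494, lay close under the threshold. Egr1, a zinc finger factor, measured 10.72, 11.19 and 11.06 in control_0 and 10.27, 11.23 and 11.07 in pre-treatment_0. In the control culture its hourly means were 11.03 at hour 1, 9.19 at hour 2 and 8.17 to 8.45 from hour 3 on, so the mean of hour 1 lay among the arrays of time 0 and the later means lay below them. Its difference over all 8 hours was 2.20 (SE 0.27, adjusted p = 9.41e-07). Dusp6, a phosphatase that limits ERK signalling, measured 10.44, 11.06 and 11.21 in control_0 and 10.80, 11.14 and 11.24 in pre-treatment_0, against hourly means of 8.83 to 9.39 from hour 2 on (difference 1.77, SE 0.16, adjusted p = 3.23e-09). Other genes of this kind were the nuclear receptor Nr4a3 (1.59, SE 0.20), the AP-1 subunit Fosl1 (1.41, SE 0.21), the growth factor Hbegf (1.39, SE 0.18), Egr2 (1.36, SE 0.19) and the matricellular Ccn1 (1.27, SE 0.22). Fos itself had 6.48 ± 0.30 at time 0 and differed by 0.01 (SE 0.11, adjusted p = 0.981). Its mean at time 0 and its hourly means (6.34 to 6.60) lay within the background range, where a change may go unseen. Serum response factor (Srf), which drives many of these genes, was higher by 0.29 (SE 0.087, adjusted p = 0.0337).

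The promoters of Srf and Egr2 are shown because both carry CArG boxes (capitals), in the same 250 base window and build.
Srf, chr9:21923826-21924075, plus strand: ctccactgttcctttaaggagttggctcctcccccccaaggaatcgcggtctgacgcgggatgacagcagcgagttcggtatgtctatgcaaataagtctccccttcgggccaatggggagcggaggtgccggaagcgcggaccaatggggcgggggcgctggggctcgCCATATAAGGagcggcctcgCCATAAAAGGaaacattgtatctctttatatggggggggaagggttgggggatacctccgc
Egr2, chr20:21054442-21054691, minus strand: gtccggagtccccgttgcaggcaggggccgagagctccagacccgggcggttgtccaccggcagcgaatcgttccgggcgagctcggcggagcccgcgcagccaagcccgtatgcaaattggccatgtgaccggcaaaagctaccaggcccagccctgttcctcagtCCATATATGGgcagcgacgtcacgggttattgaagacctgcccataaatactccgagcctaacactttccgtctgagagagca
Srf held CArG boxes at 81 and 61 bases before its start and Egr2 at 83 bases. This box was found in 1.5% of all 33469 promoters, as a pattern that reads alike on both strands, and in 5 of the 13 early genes higher at time 0 that have a promoter in the table (38.5%). Nr4a1, Ier2 and Dusp6 had none in this window.

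The Id genes were 3 of the 16 tested myogenic regulators, and the only ones called, against 3.17% of all tested genes called higher. With the letter as a block 4 regulators were called higher and 2 lower, against 8.63% and 13.6% of all tested genes. Id3 measured 8.71, 11.11 and 11.45 in control_0 and 11.15, 11.38 and 10.93 in pre-treatment_0, and fell to hourly means of 8.07 to 8.56 from hour 3 on (difference 2.06, SE 0.32, adjusted p = 5.14e-05). Its control_0 array of letter a was already near the later level. Id1 (1.13, SE 0.25) and Id2 (1.05, SE 0.23) were also higher at time 0. Inhba, the activin A subunit (1.35, SE 0.23), and Slc2a3 (1.26, SE 0.20, 2.40-fold) belonged to the 10 largest differences. Slc2a1 was higher by 0.45 (SE 0.12, adjusted p = 0.0203). Slc2a4 was lower by -0.23 (SE 0.067, adjusted p = 0.0255).

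Of 21 tested genes of the atrophy and FOXO list, 10 were called lower at time 0 and 1 higher (Cited2, 0.55, SE 0.09), with a median of -0.31. With 1 mean per letter, paired, 2 of these 10 were still called lower, against 3.74% of all tested genes, and Cited2 higher. All of these had adjusted p of 0.0463 to 0.0466 in that limma fit, close under the threshold. Bcl2l11 (Bim), a trigger of apoptosis, measured 8.83, 7.87 and 7.51 in control_0 and 8.17, 8.04 and 7.66 in pre-treatment_0, against 9.53 to 9.72 in the hourly means from hour 3 on (difference -1.30, SE 0.20, adjusted p = 2.75e-05). Pdk4 measured 5.19, 5.11 and 4.90 in control_0 and 5.73, 5.37 and 4.76 in pre-treatment_0 and had hourly means of 6.48 to 6.91 from hour 2 on (difference -1.26, SE 0.18, adjusted p = 1.48e-05), which took it from within the background range to its limit. Txnip, which restrains glucose uptake (-0.85, SE 0.15), Ccng2, an atypical cyclin (1.99-fold), Klhl24 (-0.82, SE 0.15) and Sesn1, a stress-induced inhibitor of mTORC1 (-0.76, SE 0.13), were also lower. Outside the lists, Ndrg1 (-1.23, SE 0.15), the hormone Stc1 (-0.94, SE 0.18) and the PI3-kinase inhibitor Pik3ip1 (-0.88, SE 0.13) were among the 10 largest.

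Of 27 tested genes of fatty acid oxidation 4 were lower at time 0 (Cpt1a -0.48, SE 0.077, Hadh -0.39, SE 0.078, Cpt2 -0.25, SE 0.077, and Echs1 -0.19, SE 0.057). With 1 mean per letter, paired, 2 of these 4 (Cpt1a and Hadh) were still called. Of 17 clock genes, 3 were higher (Bmal1, Bhlhe40 and Nfil3) and 4 lower (Nr1d1, Nr1d2, Dbp and Bhlhe41). The paired fit still called 2 of these 3 and 3 of these 4. Over all tested genes 3.17% were called higher and 4.11% lower, and 1.18% and 3.74% in the paired fit. Insr was lower by -0.29 (SE 0.084, adjusted p = 0.0291). For contractile and matrix genes limma called 0 of 43 of the sarcomere list (1 at an unadjusted p under 0.05), 0 of 19 of the calcium list (1), 0 of 14 of the neuromuscular list (3) and 0 of 30 of the extracellular matrix (0). Myog had a difference of -0.00 (SE 0.36). With the letter as a block, which takes differences between letters out of the error, 9 sarcomere genes were called lower and 1 higher, 3 of the calcium list lower and 1 higher, 4 of the neuromuscular and 3 of the matrix list lower, 12 of fatty acid oxidation lower, and 11 of insulin signalling lower and 4 higher. In the same fit 8.63% of all tested genes were called higher and 13.6% lower, so that the counts of the matrix and calcium lists lay near those shares.

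The number of called probe sets ranged widely with the samples used. It was 4296 with the letter as a block, in which all 1404 were called again, 2505 against control hours 3 to 8 and 267 with the control_0 arrays alone. Without letter b it was 374, without letter c 406, and without the control_0 array of b or c or the pre-treatment_0 array of c it was 899, 812 and 673. With 1 mean per letter, paired, 22 of the 36 genes named by rule no longer passed. Among them were Egr1 (adjusted p = 0.27), Id3 (0.198), Dusp6 (0.102), Nr4a3, Hbegf, Egr2 and each of the 10 genes with the largest differences in the lower direction, such as Bcl2l11 (0.748), Pdk4 (0.70), Ndrg1, Ccng2, Txnip, Pik3ip1 and Stc1. Fosl1, Inhba, Ccn1, Slc2a3 and Cpt1a still passed, but with adjusted p of 0.0463 to 0.0488 in this limma fit, close under the threshold. Of the 36 genes named by rule, Insr was the one that lost its call without the control_0 array of letter a. Slc2a4 lost it without control_0 c, pre-treatment_0 b or pre-treatment_0 c, and without letter b or c. Id1, Id2, Id3, Inhba and Stc1 were not called without letter b, nor Id2, Ccn1 and Stc1 without letter c. Cpt2 and Echs1 lost the call in most fits with an array left out.

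**Figure D5:**
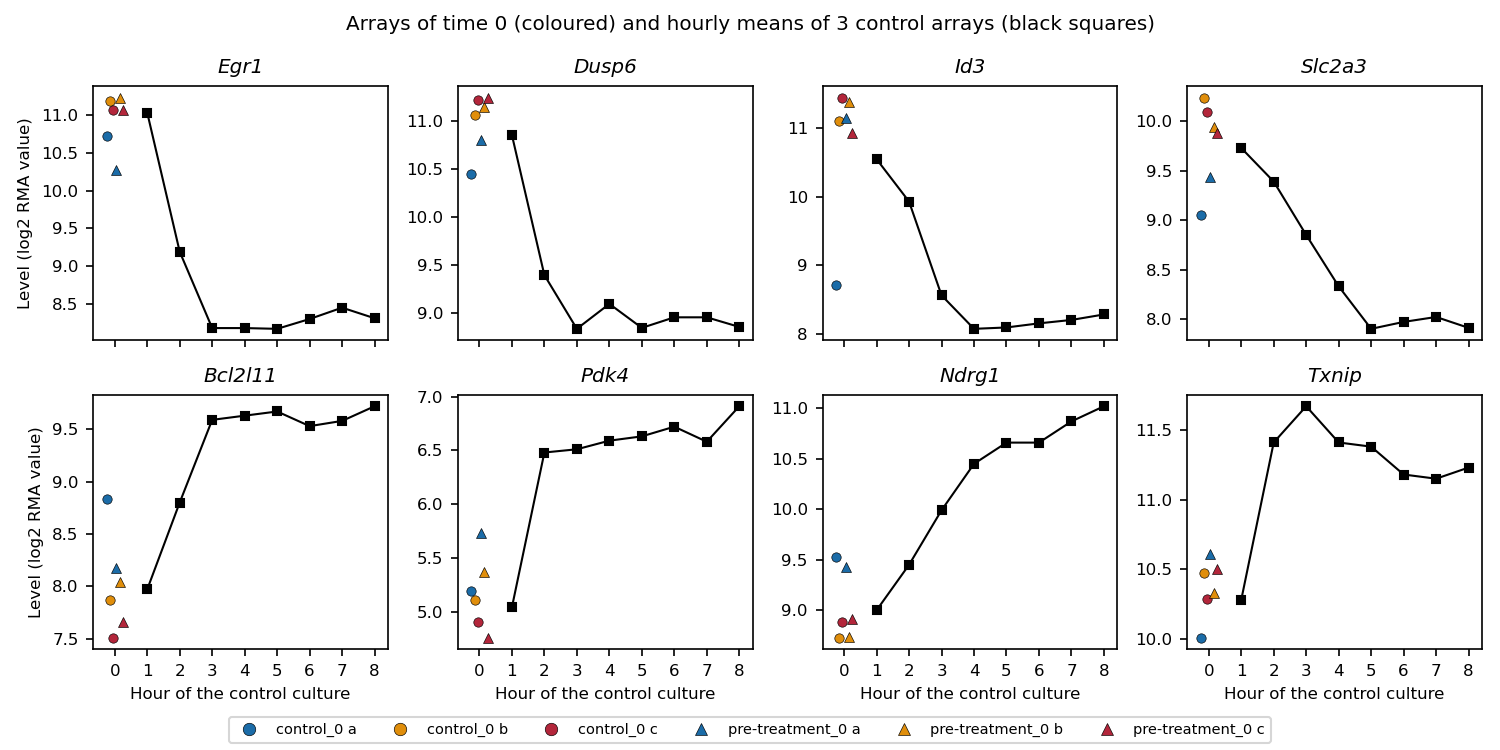
Log2 RMA level (y axis) of 8 genes on the 6 arrays of time 0 (coloured points, circles control_0, triangles pre-treatment_0) and the mean of 3 control arrays at each of hours 1 to 8 (black squares, x axis in hours). Hour 1 lies near time 0 in each panel, and Egr1 goes from 11.03 at hour 1 to 8.18 at hour 3 while Bcl2l11 goes from 7.97 to 9.59.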

How the data were processed

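RNA of L6 cultures was hybridized to Affymetrix rat arrays. The authors corrected background, quantile normalized the arrays and summarized probes by RMA (version not stated), and the deposited log2 values of 31099 probe sets on 53 arrays were used as given. Each of the 18 groups holds 3 arrays except 1, so precision is set by how few arrays there are. Arrays were assigned to culture, hour and letter by their titles. The submitters' notes give 20-min samples pooled by hour and time 0 samples pooled per culture.

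Controls of the manufacturer (57) were left out, and the 70% of probe sets with the highest mean (21729, lowest mean 5.08) were tested in limma 3.58.1 (R 4.3.3) using a variance trend and Benjamini-Hochberg adjustment at 0.05, two-sided. The culture and hour comparisons used all 53 arrays with 1 mean per group, and the letter comparison the 6 arrays of time 0. The scripts were tested on simulated data. In the platform annotation 20832 probe sets carry 1 symbol, 436 several and 9831 none, and genes were named only from the first kind. Promoters came from RefSeq (GRCr8).

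Per the labels the triplicate came from runs on different days, and the letters are taken to mark these runs, though no label ties a letter to a day. Deviations of the arrays with the same letter correlated at 0.40, 0.21 and 0.39, each over 0.1, so the letter was used as a block in alternative fits. The main fits of the culture and hour comparisons held no letter term. The members and gene lists were chosen with earlier results of these data known. Named were list members, the 5 largest culture differences per letter and direction (and the 5 largest moderated t), the 10 called genes with the widest letter range, the 10 largest time differences per direction, and up to 4 called members of a list. Other genes (Cox8b, Chrnb1, Musk, Rapsn, Atp2a2, Tpm3, Fos, Slc2a1 and the further called list members) were added after their values were seen. Alternatives were other filters, scalings, limits and probe set choices, the letter as a block, and leaving out arrays.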

Additional observations from a re-analysis of the deposited data

Results flagged for a closer look

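The 6 arrays of time 0 were screened as 1 untreated set for a lone array, with Dixon's ratio of the gap to the range at its 95% critical value, in 71 named genes. Chance marks about 1 in 20 sets, and genes chosen for a large difference within a letter tend to be marked by that choice. An array stood apart in 9 genes, in 7 of them the control_0 array of letter a. That array was low in Id3 (8.71, others 10.93 to 11.45), Il1rl1 (8.00, others 10.31 to 11.14), Gpx1 (9.55, others 11.22 to 11.70), Fxyd5 (8.42, others 10.30 to 10.89), Grem1 (8.16, others 9.93 to 10.54) and Fosl1 (7.64, others 8.85 to 9.47), and high in Nox1 (8.83, others 7.14 to 7.70). The control_0 array of letter b was high in Adrm1 (8.80, others 7.57 to 7.93), and the pre-treatment_0 array of letter c was low in Hsd3b7 (7.88, others 8.64 to 8.84).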

How the results depend on the processing

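The culture difference at time 0 gave 0 called probe sets under each alternative run, the replicate block included (0 with the letter within each hour as a block, 1079 at an unadjusted p under 0.05). The letter differences (187 probe sets) kept within 1.5 times under the other filters, scalings and the culture as a term (159 to 214), and ran from 23 to 987 with 1 array left out. In the control culture of hours 1 to 8 in place of time 0, an alternative chosen after seeing the data, 13728 were called with 8 arrays a letter. The comparison with control hours 1 to 8 (1404) gave 4296 with the replicate block, 267 with the control culture at time 0 alone, 2505 against control hours 3 to 8, and 2533 against those hours without the control_0 array of letter a (also chosen after seeing the data). It ran from 374 to 1496 with an array or a letter left out. The causes were not tested. Of the genes named by rule that were recomputed (10 for the cultures by moderated t, 29 for the letters and 36 for the hours), none reversed its direction. The block changed no call of the 36 called genes named by rule in the last comparison. For the levels at time 0 the number of genes above the background range (7839) ran from 7047 to 9720. With the limit at the 75th percentile, 8 genes of the insulin-like growth factor list were above it in place of 5, and 3 macrophage genes in place of 1.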

Other observations

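Most measured genes of the sterol, amino acid and clock lists were also above the background range at time 0. Over all 14217 genes the share was 55.1%. Of 19 measured genes of cholesterol synthesis and uptake 18 were above it, among them Msmo1 (11.70 ± 0.21, SD, n = 6) and Cyp51 (11.22 ± 0.38), enzymes that process lanosterol. Within letter a 1 of the 19 was higher in pre-treatment_0 than in control_0, with a median difference of -0.27 over the list, and in letters b and c the medians were 0.06 and -0.09. Of 30 genes of the amino acid response 26 were above the range, with its transcription factor Atf4 at 11.84 ± 0.16, and of 17 clock genes 13, with Clock at 9.09 ± 0.08. The ubiquitin ligase Fbxo32 (atrogin-1) lay at 4.61 ± 0.12, within the range, and the ligase Trim63 (MuRF1) had 1 array above the limit.

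Of 14217 genes, 93 were above the limit on the 4 arrays of letters a and b but not on both of letter c. The reverse was more frequent, with 291 genes above it on both arrays of letter c but not on all 4 of letters a and b. Of the 93 genes, 5 belonged to the sarcomere list (Actn2, Neb, Mybpc1, Myot and Trim54) and 2 to the calcium list (Cacna1s and Stac3).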
